A study of Mus musculus with 4 samples.

Results

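The genes described here encode the enzymes and helpers that process and crosslink collagen: the 5 lysyl oxidases Lox, Loxl1, Loxl2, Loxl3 and Loxl4, the 3 lysyl hydroxylases Plod1, Plod2 and Plod3, the collagen chaperone Serpinh1 and the procollagen proteinase enhancer Pcolce. Members were taken by gene name from the array files, and all 10 were found, on 13 probes, among 14993 genes and 27724 probes tested. The 2 groups were STMN1-/- mouse embryo fibroblasts (MEFs), whose Stmn1 gene is disrupted by a neomycin cassette, and STMN1+/+ MEFs, both of strain C57BL/6, derived from single embryos of heterozygous matings and grown untreated in serum-containing medium for a limited number of passages. Each of 4 Agilent arrays was hybridised with labelled RNA of both genotypes, STMN1-/- RNA being labelled with Cy3 on arrays 1 and 2 and with Cy5 on arrays 3 and 4. The labels name neither the embryo nor the RNA extract behind an array, and p-values here therefore reflect differences among 4 arrays that may be technical replicates. In RNA from whole cultures, fewer cells of a type and less RNA per cell cannot be told apart.

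Fibrillar collagen is built in steps that begin in the endoplasmic reticulum and end outside the cell. Lysyl hydroxylases modify lysines of the new chains, the chaperone HSP47 (the product of Serpinh1) binds the folded triple helix, and outside the cell proteinases aided by the enhancer PCPE1 (the product of Pcolce) remove the C-propeptide so that fibrils can form. Lysyl oxidases, copper-dependent amine oxidases, then turn lysines and hydroxylysines into aldehydes from which the covalent crosslinks of collagen, and in the case of elastin those of elastic fibres, arise. Fibroblasts are a main source of all of these proteins.

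Loxl2, Loxl4 and Plod3 were each read by a pair of 60-base probes, and these are shown because the log2 ratios of the pair set out for each gene whether independent stretches of a transcript gave the same answer. The sequences are those of the array design, 5′ to 3′ and all in lower case since no part is singled out, with positions on mouse build mm7.
Loxl2 A_52_P480351: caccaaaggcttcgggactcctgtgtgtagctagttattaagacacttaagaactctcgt
Loxl2 A_51_P275949: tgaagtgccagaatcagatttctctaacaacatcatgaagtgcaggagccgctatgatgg
Loxl4 A_52_P342526: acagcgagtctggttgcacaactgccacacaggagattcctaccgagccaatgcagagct
Loxl4 A_51_P386533: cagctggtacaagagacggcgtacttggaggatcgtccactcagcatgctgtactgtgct
Plod3 A_51_P372172: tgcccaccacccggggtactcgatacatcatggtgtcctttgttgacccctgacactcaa
Plod3 A_52_P207278: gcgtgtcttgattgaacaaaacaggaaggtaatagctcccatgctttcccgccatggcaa
The Loxl2 probes lie at chr14:64339741-64339800 and chr14:64336628-64336687 on the plus strand and have the same GC content, 45%. The Loxl4 probes lie at chr19:42489250-42491402 and chr19:42493908-42493967 on the minus strand, both with a GC content of 55%. The Plod3 probes lie at chr5:135967119-135967178, with a GC content of 55%, and at chr5:135961736-135961904, with 48.3%, on the plus strand. The first Loxl4 probe spans 2153 bases of the genome and the second Plod3 probe 169, more than the 60 bases of the probe. The exon or untranslated region that each probe falls in was not looked up, since no annotation of build mm7 was used here.

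Every member was expressed in both genotypes: all 13 probes were well above background in both channels of all 4 arrays. Taking for each gene its brightest probe, 4 of the 10 genes were higher in STMN1-/- MEFs and 0 were lower by limma's moderated test, adjusted over all probes, against 13.4% of all genes tested that were higher and 12.3% that were lower. By probe, 5 of 13 were higher and 0 lower, against 11.2% and 11.1% of all probes. The higher genes were Loxl2, Pcolce, Loxl1 and Serpinh1. The median log2 ratio of the 10 genes, STMN1-/- over STMN1+/+, was 0.33, against 0.01 over all genes tested. Log2 ratios were above 0 on every array with a value in 7 of the 10 and below 0 in 1, against 26.1% and 25.6% of all genes tested. The STMN1-/- signals lay wholly above the STMN1+/+ signals in 5 of the 10, a separation that 14.2% of all genes tested also showed.

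**Figure D1:**
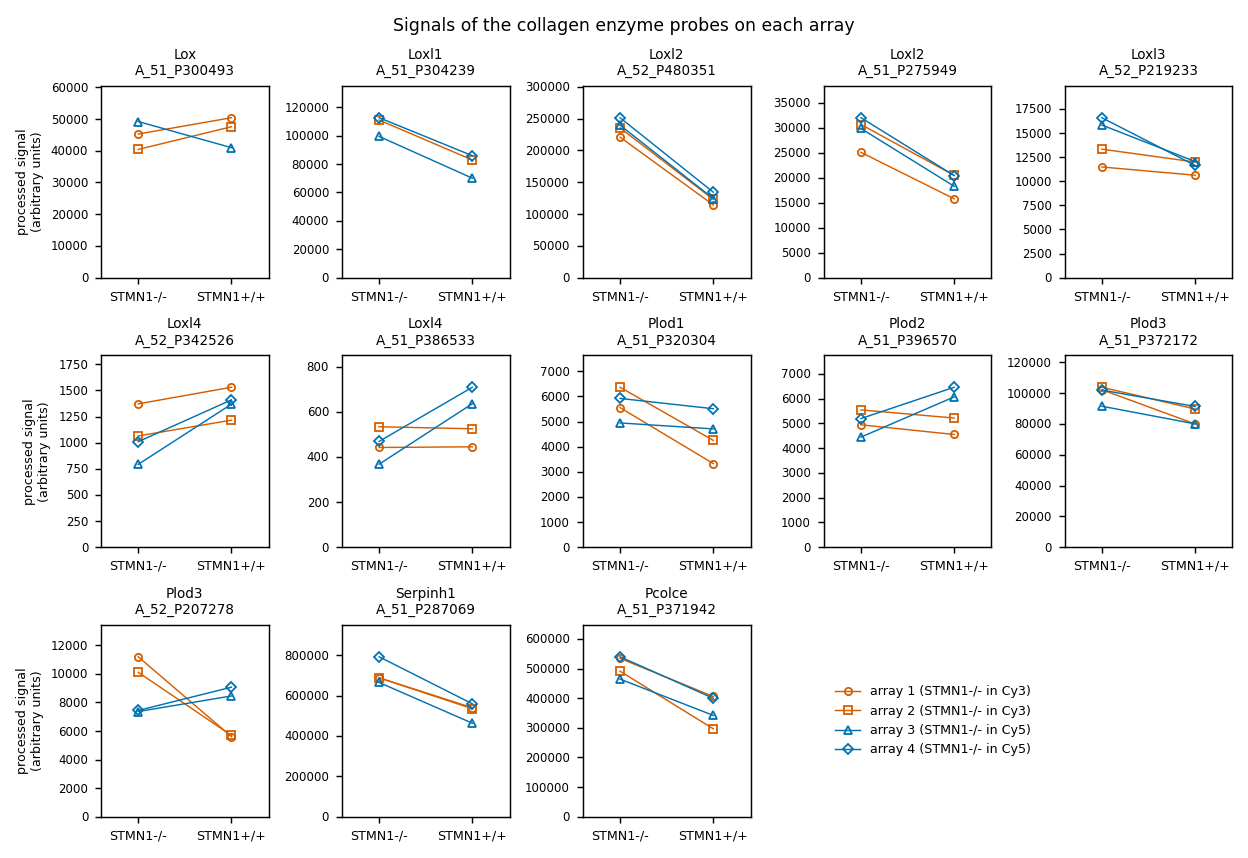
Processed signal (arbitrary units, each panel on its own axis from 0) of the 13 probes, with STMN1-/- on the left and STMN1+/+ on the right. A line joins the values of an array, orange for arrays 1 and 2 (STMN1-/- RNA in Cy3) and blue for arrays 3 and 4 (in Cy5). The lines of both Loxl2 probes, Loxl1, Serpinh1 and Pcolce all fall from left to right. Those of Loxl3, Plod1 and Plod3 A_51_P372172, which were not called, also all fall, while those of Plod2 and of Plod3 A_52_P207278 cross by colour.

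Loxl2, a lysyl oxidase with scavenger receptor domains that also acts on basement membrane collagen, showed the largest change of the members. Probe A_52_P480351 gave signals of 220668, 235248, 239536 and 251241 in STMN1-/- MEFs on arrays 1 to 4, against 114347, 123055, 124217 and 134286 in STMN1+/+ MEFs. The lowest STMN1-/- signal exceeded the highest STMN1+/+ signal by a wide margin, and the log2 ratios of the arrays, 0.95, 0.93, 0.95 and 0.90, hardly differed with the dye. The mean log2 ratio was 0.93 (SE 0.05, n = 4 arrays), a 1.91-fold higher level in STMN1-/- MEFs, with a limma adjusted p of 0.00103.

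The second Loxl2 probe, A_51_P275949, lies upstream in the gene. It gave 25092, 30661, 29864 and 32020 in STMN1-/- MEFs, against 15781, 20480, 18297 and 20441 in STMN1+/+ MEFs. These groups did not overlap either, and the mean log2 ratio was 0.65 (SE 0.06, n = 4; limma adjusted p = 0.00262), a 1.57-fold higher level. The ratio of the first probe was above that of the second on each array, by 0.28, 0.35, 0.24 and 0.26 on the log2 scale (mean 0.28 ± 0.05 SD). An exact two-sided sign-flip test of this difference gave p = 0.125, the smallest that 4 arrays allow. Both Loxl2 probes passed the limma test under every alternative processing tried.

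Loxl1, which is linked to elastic fibre renewal, was higher by a smaller margin. One of its spots, on array 1, was marked as an outlier and left out. On arrays 2, 3 and 4 its signals were 110947, 99411 and 112581 in STMN1-/- MEFs, against 82836, 70015 and 85844 in STMN1+/+ MEFs. The groups did not overlap, and the mean log2 ratio was 0.44 (SE 0.07, n = 3; limma adjusted p = 0.0220), a 1.36-fold higher level. With the outlier spot kept, it was 0.43 (limma adjusted p = 0.00777). The call was lost when array 2, 3 or 4 was left out, with adjusted p-values of 0.0978, 0.104 and 0.0885.

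Lox, the founding member of the family and the main crosslinking enzyme of fibrillar collagen and elastin, did not pass the test. Its signals were 45261, 40422 and 49210 in STMN1-/- MEFs on arrays 1 to 3, against 50412, 47564 and 40972 in STMN1+/+ MEFs, the spot on array 4 being left out as an outlier. The groups overlapped, the STMN1-/- signal being lower on both arrays with that RNA in Cy3 and higher on the 1 array with it in Cy5. The mean log2 ratio was -0.04 (95% confidence interval -0.39 to 0.30; limma adjusted p = 0.847, n = 3), an interval that includes changes of the size seen for Loxl3 and Plod3.

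Loxl3, another member with scavenger receptor domains, gave 11482, 13331, 15833 and 16592 in STMN1-/- MEFs, against 10629, 11995, 12047 and 11645 in STMN1+/+ MEFs. The STMN1-/- value was above that of its own array on all 4, by little where its RNA was in Cy3 and by more where it was in Cy5, and the ranges overlapped. The mean log2 ratio was 0.29 (95% confidence interval 0.06 to 0.52), which did not pass after adjustment (limma adjusted p = 0.0769).

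Loxl4 was the only member gene with a log2 ratio below 0 on every array by its brightest probe. Probe A_52_P342526 gave 1372, 1065, 793 and 1010 in STMN1-/- MEFs, against 1531, 1216, 1369 and 1410 in STMN1+/+ MEFs. The ranges overlapped through array 1, and the mean log2 ratio was -0.40 (95% confidence interval -0.72 to -0.09; limma adjusted p = 0.0760). The other Loxl4 probe gave -0.01, 0.02, -0.79 and -0.60 on arrays 1 to 4, with a mean of -0.34 (limma adjusted p = 0.205). The log2 ratios of the Loxl4 probes differed by -0.06 ± 0.15 (SD, n = 4; exact sign-flip p = 0.5), and for both probes the ratios on arrays 3 and 4 were farther below 0 than those on arrays 1 and 2.

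None of the lysyl hydroxylases passed the test. Plod1 hydroxylates lysines in the triple helix. Its signals were 5554, 6364, 4944 and 5919 in STMN1-/- MEFs, against 3329, 4250, 4707 and 5510 in STMN1+/+ MEFs. They were higher in STMN1-/- MEFs on all 4 arrays, but the log2 ratios were 0.74 and 0.58 with that RNA in Cy3 and 0.07 and 0.10 with it in Cy5, and the ranges overlapped. The mean log2 ratio was 0.37 (SE 0.14; limma adjusted p = 0.120).

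Plod2, which hydroxylates the telopeptide lysines that lead to the more stable crosslinks, gave log2 ratios of 0.12 and 0.09 on arrays 1 and 2 and of -0.45 and -0.31 on arrays 3 and 4. The sign thus went with the dye, and the mean of -0.14 (95% confidence interval -0.45 to 0.17) did not pass the test (limma adjusted p = 0.460). Plod2 signals ranged from 4447 to 5546 in STMN1-/- MEFs and from 4552 to 6460 in STMN1+/+ MEFs.

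Plod3 hydroxylates lysines and also adds the galactose and glucose of collagen. Its brightest probe, A_51_P372172, gave 102195, 103784, 91470 and 101941 in STMN1-/- MEFs, against 79960, 89642, 80014 and 91303 in STMN1+/+ MEFs. The lowest STMN1-/- signal was just above the highest STMN1+/+ signal, and the mean log2 ratio of 0.23 (95% confidence interval 0.07 to 0.38) missed the threshold narrowly (limma adjusted p = 0.0538). The other Plod3 probe gave 1.00 and 0.83 on arrays 1 and 2 but -0.20 and -0.29 on arrays 3 and 4, a mean of 0.34 with an SE of 0.26 (limma adjusted p = 0.412). The log2 ratio of the brightest probe minus that of the other was -0.64 and -0.62 on arrays 1 and 2 and 0.39 and 0.44 on arrays 3 and 4 (exact sign-flip p = 0.75 for the mean). The Plod3 probes thus disagreed on each array, in a direction that followed the dye.

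**Figure D2:**
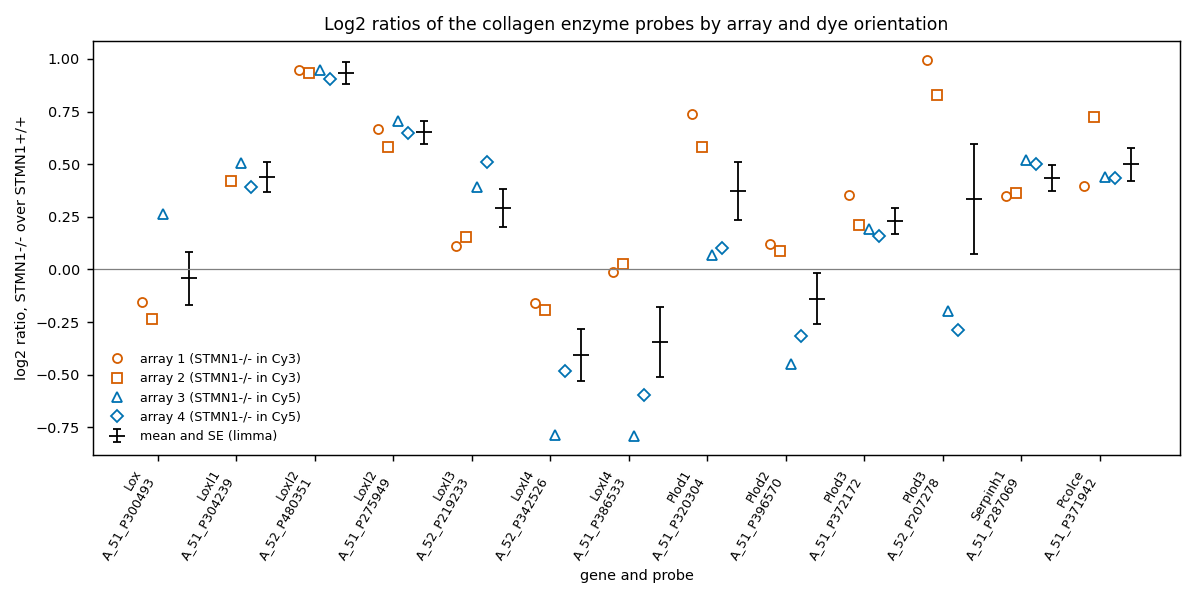
Log2 ratio, STMN1-/- over STMN1+/+, of each member probe on each array, in orange for arrays 1 and 2 (STMN1-/- RNA in Cy3) and in blue for arrays 3 and 4 (in Cy5), with the mean and SE of the limma fit in black. Both Loxl2 probes sit between 0.58 and 0.95 on every array, whereas Plod3 A_52_P207278 runs between -0.29 and 1.00 with the colours apart.

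Serpinh1 encodes HSP47, a chaperone whose known clients are the collagens. Its signals were 687481, 687647, 664546 and 791775 in STMN1-/- MEFs, against 539653, 534687, 462930 and 559051 in STMN1+/+ MEFs. The groups did not overlap, and the log2 ratios were 0.35, 0.36, 0.52 and 0.50. The mean was 0.43 (SE 0.06, n = 4; limma adjusted p = 0.0104), a 1.35-fold higher level. Leaving out array 3 or 4 brought the adjusted p to 0.05002 and 0.0532, just past the threshold, with log2 ratios of 0.40 and 0.41.

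Pcolce gave 534441, 491019, 464372 and 539674 in STMN1-/- MEFs, against 405714, 296762, 341936 and 399715 in STMN1+/+ MEFs. No STMN1-/- signal reached down to the highest STMN1+/+ signal. The mean log2 ratio was 0.50 (SE 0.08, n = 4; limma adjusted p = 0.0130), a 1.41-fold higher level, and the ratio on array 2, 0.73, stood above the 0.40, 0.44 and 0.43 of the other arrays. Leaving out array 3 or 4 gave adjusted p-values of 0.0506 and 0.0516.

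RefSeq promoter windows of build GRCm38.p6, from 250 bases before to 50 after the gene start, were found for 5 of the 10 members: Loxl4, Plod1, Plod3, Serpinh1 and Pcolce. The windows of Serpinh1 (chr7:99353190-99353489, minus strand) and Pcolce (chr5:137611355-137611654, minus strand) are shown because both genes were higher in STMN1-/- MEFs by a similar fold. Capitals mark matches, on either strand, to the GC box (letters GGGCGG), to the CCAAT box (letters as in its name), to the TATA box (letters TATAAA), to the SMAD box (letters CAGAC), to the core of the hypoxia response element (letters ACGTG or letters GCGTG) and to a pair of heat shock element units (letters GAANNTTC). None of the matches shown overlaps another.
Serpinh1 promoter: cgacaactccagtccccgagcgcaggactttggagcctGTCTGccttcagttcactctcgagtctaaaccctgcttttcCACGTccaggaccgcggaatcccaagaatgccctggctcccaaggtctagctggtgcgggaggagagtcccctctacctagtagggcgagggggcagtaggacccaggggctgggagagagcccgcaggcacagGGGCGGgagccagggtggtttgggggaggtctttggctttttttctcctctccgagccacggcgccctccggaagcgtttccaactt
Pcolce promoter: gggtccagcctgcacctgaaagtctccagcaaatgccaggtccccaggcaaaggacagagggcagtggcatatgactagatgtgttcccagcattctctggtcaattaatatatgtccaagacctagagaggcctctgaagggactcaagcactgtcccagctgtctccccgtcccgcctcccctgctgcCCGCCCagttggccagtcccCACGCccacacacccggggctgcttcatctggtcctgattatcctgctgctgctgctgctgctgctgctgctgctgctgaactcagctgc
The Serpinh1 window held a GC box starting at -37 from the gene start, a CAGAC match at -212 and an ACGTG match at -171, and the Pcolce window a GC box at -60 and a GCGTG match at -40. The GC box is found in 35.6% of 32817 RefSeq promoter windows of this length, CAGAC in 49.6%, ACGTG in 19.6%, GCGTG in 32.4%, CCAAT in 37.4%, TATAAA in 13.6% and GAANNTTC in 7.86%, and of these motifs the windows of Serpinh1 and Pcolce shared the GC box, and each held 1 of the hypoxia core spellings. The Loxl4 and Plod1 windows held 3 GC boxes each and the Plod3 window 0. Hypoxia core spellings were also in the windows of these genes, which were not called. There was 1 GCGTG match in Loxl4, 2 in Plod1 and 3 in Plod3, which also held 1 ACGTG match. The share of all windows with either spelling was not computed. These matches describe the letters of the windows only.

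The members were set against the main fibrillar chains that these enzymes act on. Col1a1 and Col1a2, the chains of type I collagen, had log2 ratios of 1.28 and 1.14, and Col3a1, the chain of type III collagen, 1.23 (limma adjusted p = 0.000803, 0.00959 and 0.000803). These values are those of each gene's brightest probe. The other probes gave lower ratios, 1.06 and 0.97 for Col1a1, 0.66 for Col1a2 and 1.15 for Col3a1. By the brightest probes, the mean of the 3 chains was 1.10, 1.14, 1.33 and 1.30 on arrays 1 to 4. Set against this mean within each array, the log2 ratio of every member was lower on every array on which it was measured. The chains, like the lists, were chosen with earlier results of these data known, so this ordering is not independent of that choice. Loxl2 came nearest, at -0.29 ± 0.12 (SD, n = 4), followed by Pcolce at -0.72 ± 0.22. The comparison was not repeated with the other collagen probes, and that of Col1a2, at 0.66, lay below the 0.93 of Loxl2.

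Serpinh1 held a nearly fixed distance from the mean of the collagen chains, with differences of -0.75, -0.78, -0.81 and -0.80 on arrays 1 to 4 (mean -0.79, SD 0.03). Between arrays with STMN1-/- RNA in Cy3 and in Cy5, its ratio went from 0.36 to 0.51 and that of Col1a2 from 0.81 to 1.48. Col1a1 went from 1.34 to 1.23 and Col3a1 from 1.22 to 1.24, so the distance to single chains was not fixed. Loxl1 was at -0.82 ± 0.10 (n = 3), Loxl3 at -0.93 ± 0.09 and Plod3 at -0.99 ± 0.19. Plod1 was at -0.85 ± 0.45, Lox at -1.23 ± 0.16 (n = 3), Plod2 at -1.36 ± 0.40 and Loxl4 at -1.62 ± 0.40. The exact sign-flip test gave p = 0.125 for each of the 8 genes with 4 arrays and p = 0.25 for the other 2, the smallest that these numbers of arrays allow (0.156 and 0.25 after Benjamini-Hochberg adjustment over the 10), so this design cannot reach 0.05 for any of these differences.

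**Figure D3:**
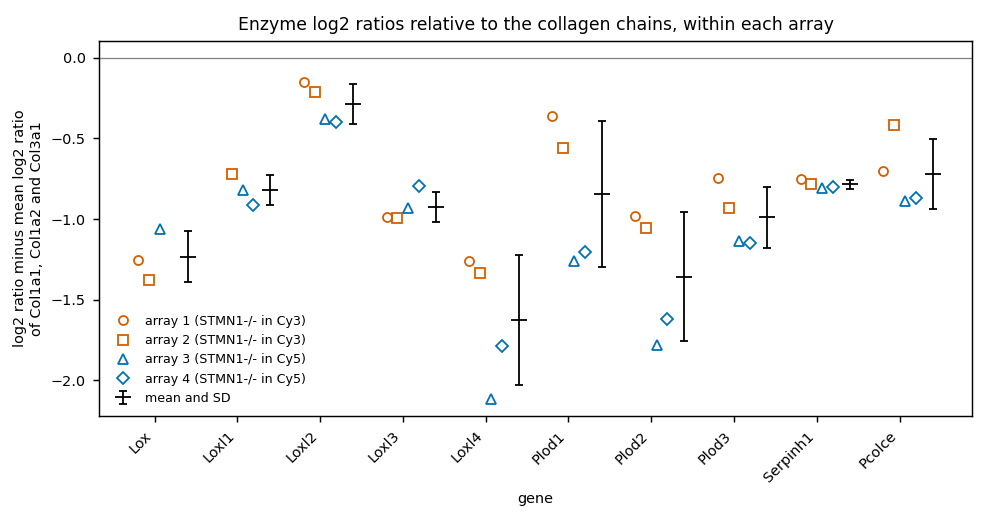
Log2 ratio of each member (brightest probe) minus the mean log2 ratio of Col1a1, Col1a2 and Col3a1 (brightest probes) on the same array, in orange for arrays 1 and 2 (STMN1-/- RNA in Cy3) and in blue for arrays 3 and 4 (in Cy5), with mean and SD in black. All points lie below 0, nearest to it for Loxl2 at -0.29, and those of Serpinh1 lie closest together, from -0.75 to -0.81.

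Of the 12 genes listed as fibrillar substrates of the lysyl oxidases, 10 were higher, 0 lower and 2 not called, with a median log2 ratio of 0.98. Beside the type I and III chains, they included Col5a3, a chain of type V collagen, at 1.89, Col24a1 at 1.54 and Eln, which encodes elastin, at 1.09. Col2a1, the cartilage collagen, counted among the higher genes at 0.22 by its brightest probe, but its other probe gave -1.08, so its direction differed between probes. The median over the 10 members was 0.33. Beside each list count here and below stands the share of all genes tested, 13.4% higher and 12.3% lower.

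Prolyl hydroxylation, the other hydroxylation of collagen, which stabilises the triple helix, had 5 of 10 genes higher, 1 lower and a median of 0.29. P3h3, a prolyl 3-hydroxylase, was at 0.78, P3h1 at 0.60, P4ha2, a catalytic subunit of prolyl 4-hydroxylase, at 0.60, P4ha3 at 0.57 and P4hb, its common subunit, at 0.35. P3h2 was the lower one, at -0.56. For collagen glycosylation, folding and export, 6 of 10 were higher and 0 lower (median 0.36). These were Fkbp7 at 0.84 and Fkbp14 at 0.58, prolyl isomerases of the endoplasmic reticulum, Creb3l1 at 0.67, a transcription factor of collagen secretion, Colgalt1 at 0.49, the collagen galactosyltransferase, and the export factors Mia3 at 0.36 and Sec24d at 0.32.

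Among the procollagen proteinases and enhancers, 3 of the 6 tested were higher and 1 was lower (median 0.36). The N-proteinases Adamts2 and Adamts3 were at 1.21 and 1.08, although Adamts3 was well above background in STMN1+/+ MEFs on 1 array alone and was at 0.22, no longer called, with normexp background correction (limma adjusted p = 0.131). Bmp1, the C-proteinase that PCPE1 enhances, was at 0.60, while its relative Tll1 was at -0.47.

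Scaffold proteins that position lysyl oxidases, with the transporters that bring them copper, had 6 of 9 higher and 0 lower (median 0.53). Postn (periostin) was at 1.85, Fmod (fibromodulin) at 1.81, Fbln5 (fibulin 5) at 0.87, Fn1 (fibronectin) at 0.82, Sparc at 0.53 and Atp7a, the copper pump of the secretory pathway, at 0.42. In the study's own RT-PCR array, Postn went the other way, being lower in STMN1-/- MEFs, while Adamts2 was higher there too. Cross-linkers of another kind, the transglutaminases, had 0 of 4 higher and 2 lower (median -0.40). Tgm1 and Tgm3, not called, were dim, with mean signals of 136 and 115 in STMN1-/- MEFs and of 133 and 126 in STMN1+/+ MEFs. Of this list, Tgm2 alone was well above background in both genotypes on every array. Tgm2 was at -0.65 by its brightest probe, its other 2 probes at -0.55 and -0.43 not passing the test, and F13a1 at -0.70, with STMN1-/- signals well above background on 1 array alone. The F13a1 call was lost with normexp background correction, at -0.10 (limma adjusted p = 0.283), with no filter on dim probes (0.0698) and with arrays 1 and 3, and 2 and 4, averaged as pairs (0.0695). It was also lost with the methods' t-test (adjusted p = 0.1305, and 0.127 with a limit on the coefficient of variation).

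Hypoxia and TGF-beta are known to induce several of the members, and their part in the members' changes was not tested. Of 11 hypoxia response genes, 2 were higher (Ndrg1 at 0.47, Bnip3 at 0.39) and 3 lower (Adm at -1.91, Egln3 at -0.71, Pgk1 at -0.34), with a median of -0.21. Over all genes tested, 13.4% were higher and 12.3% lower. Of 9 genes on the TGF-beta response list, 4 were higher (Tgfbi at 1.15, Tgfb2 at 0.46, Tgfb1 at 0.43, Tgfb3 at 0.39) and 3 lower (among them Smad7 at -0.73 and Ccn2 at -0.32), with a median of 0.15. Tgfb1, Tgfb2 and Tgfb3 encode the TGF-beta ligands themselves, so Tgfbi was the only higher gene of the list that does not encode a ligand. All of these list values are limma log2 ratios over the 4 arrays, with P4ha2 over 3. Some genes that were not called but enter the counts and medians were also measured on 3. The genes said to be higher or lower passed the same adjusted test as the members. By another probe than the brightest, Vegfa (0.39 and 0.36) and Slc31a1 (0.38) passed as higher and Ltbp2 (-0.78) and Skil (-0.31) as lower, though none of these is among the counts. With normexp background correction and loess, 26 list genes were higher in place of 36 and 4 lower in place of 10, with 3 higher in prolyl hydroxylation and 3 in glycosylation, folding and export, while calls over all probes numbered 990 higher and 1143 lower in place of 3094 and 3082.

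**Figure D4:**
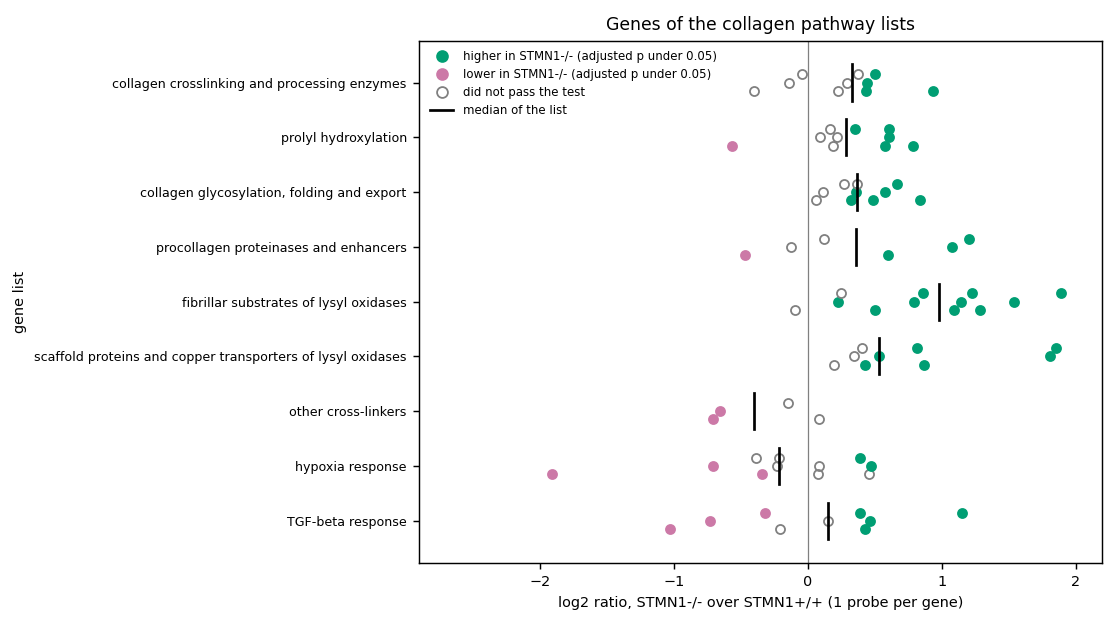
Log2 ratio, STMN1-/- over STMN1+/+, of the genes of each list (1 point per gene, its brightest probe), green where higher and purple where lower by limma's adjusted test and open where not called, with the list's median as a black bar. The fibrillar substrates have the highest median, 0.98, and the transglutaminase list of other cross-linkers the lowest, -0.40. In that last list, Tgm2 alone was well above background in both genotypes on every array.

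Dye orientation moved with several members. Across all probes, log2 ratios correlated at 0.69 and 0.70 between arrays of the same orientation and at 0.44 to 0.49 between arrays of opposite orientation. As a coefficient of the limma fit, dye orientation passed the adjusted test for 0% of the 26607 probes measured on every array (0 probes, though 8316 had an unadjusted p under 0.05). Of the 11 member probes measured on every array, 6 had an unadjusted p under 0.05 for dye, with differences between orientations, Cy5 minus Cy3, from -1.16 for the second Plod3 probe to 0.32 for Loxl3. With that coefficient in the fit, 7 member genes were higher and 1 lower, while the share of all genes called under the same fit was 21.7% higher and 20.2% lower. Loxl3 (limma adjusted p = 0.0136), Plod1 (0.0103) and Plod3 (0.0250) joined the higher ones, and Loxl4 (0.0191) was lower.

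The targeted gene was lower in STMN1-/- MEFs on every array, with a log2 ratio of -2.16 at one Stmn1 probe (4.46-fold lower) and -0.39 at the other, and where these probes lie relative to the disruption was not looked up. Per the study, a Stmn1 probe of this design also matches a region on another chromosome, so signal left at such a probe need not come from Stmn1, and which of the probes this concerns was not established here. Of 7 fibroblast markers, 5 were higher (Fap at 1.45, Pdgfrb at 1.04, Dcn at 0.99) and 1, Vim, was lower at -0.28, with summed signals of 1804862 to 3522847 in STMN1-/- MEFs and 2679468 to 3241413 in STMN1+/+ MEFs. The brightest of them was S100a4, with mean signals of 1484580 in STMN1-/- and 2072324 in STMN1+/+ MEFs. It was not called, at -0.61, and its log2 ratios, -1.54, -1.38, 0.08 and 0.38 on arrays 1 to 4, went with the dye. Of 5 epithelial markers, 4 were lower and Epcam was not above background in either genotype. Krt5 was at -1.56 and Cdh1 was not well above background in STMN1-/- MEFs, and the summed epithelial signals were 41618 to 47987 in STMN1-/- MEFs and 54054 to 60531 in STMN1+/+ MEFs. Smooth muscle markers had 1 of 5 higher (Cnn1 at 0.55), with summed signals of 3072857 to 3675105 in STMN1-/- MEFs and 2456738 to 2878839 in STMN1+/+ MEFs. Macrophage and leukocyte markers had 2 of 5 higher (Aif1 at 1.00, Csf1r at 0.28) and 1 lower (Cd68 at -0.28), endothelial markers 1 of 2 lower (Kdr at -0.72), and osteoblast and chondrocyte markers 2 of 4 lower (Sp7 at -0.43, Acan at -0.41). Macrophage and leukocyte markers summed to 6124 to 6942 in STMN1-/- MEFs and 5752 to 6620 in STMN1+/+ MEFs, endothelial markers to 1262 to 1484 in STMN1-/- MEFs and 1804 to 2102 in STMN1+/+ MEFs, and osteoblast and chondrocyte markers to 19467 to 20243 in STMN1-/- MEFs and 19743 to 21009 in STMN1+/+ MEFs. Of these lists, the defining endothelial markers Pecam1 and Cdh5, with Itgam and Ibsp, were not above background. The part of cell makeup in the members' changes was not tested.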

How the data were processed

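Total RNA of both genotypes was hybridised together on each of 4 two-color Agilent whole mouse genome arrays. The deposited intensity values (processed signals) come from the authors' run of Feature Extraction 9.5.3.1, which, per the file headers, subtracted background and normalized the dyes within each array, and the deposited log10 ratio of Cy5 over Cy3 comes from the same program. The authors' deposited lists (GeneSpring GX 10.0.1) hold 8 columns of log2 ratios and were not used.

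Each array's log2 ratio of processed signals was turned so that STMN1-/- was on top, with no pseudocount. Spots flagged as outliers (472 to 711 an array) were dropped, 0 spots were saturated, and a probe was kept when 1 or more arrays had it well above background in a channel (27759 of 41174). The moderated test of limma 3.58.1 (R 4.3.3) compared the ratios with 0, Benjamini-Hochberg adjusted over 27724 probes (threshold 0.05). The fit was tested on simulated data with independent arrays and no dye effect, so that test does not cover the dye pattern seen here. All arrays were on 1 slide, and their number limits the precision. Per the paper, scans were made at low and at high intensity. The brightest probe stood for a gene. Promoter motifs and plots used Python 3.11.15, pandas 2.3.3, numpy 2.4.6 and matplotlib 3.10.9.

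The text names every member and its probes, up to 6 called genes of each list and direction, Col1a1, Col1a2, Col3a1 and Stmn1, except 1 gene of the TGF-beta response list that is counted but not reported here. In addition, some genes and probes were named after their values were seen. These were Tgm1 and Tgm3, genes of the cell type lists with no call or not above background, and probes that disagreed with a gene's brightest one. Members and lists were chosen with earlier results of these data known. Alternatives covered background correction, the log10 column, centring, scaling, filters, outlier spots, dye as a coefficient, dye-swap pairs, the methods' t-test, left-out arrays and the median over a gene's probes.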

Additional observations from a re-analysis of the deposited data

Results flagged for a closer look

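The log2 ratio of Pcolce on array 2, 0.73, stood apart from the other 3 arrays of the group of 4, with a gap to its nearest neighbour of 0.866 of the whole range. Chance alone gives such a gap in about 1 in 20 groups, and 13 member probes were looked at. Without array 2 the mean log2 ratio of Pcolce was 0.42 and its limma adjusted p lay within the range of 0.0403 to 0.0516 found when each array was left out in turn.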

How the results depend on the processing

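Of the member calls, those of both Loxl2 probes held under every alternative tried (log2 ratios from 0.79 to 0.96 and from 0.60 to 0.67), and no member result changed direction while called. The call of Loxl1 was lost with no filter on dim probes (limma adjusted p = 0.0604) and with either pairing of swapped arrays as 2 replicates (0.0933 and 0.0798), and that of Pcolce with the methods' t-test, Benjamini-Hochberg adjusted (0.0508). The count of higher member genes, 4, was 7 with dye orientation as a second coefficient, and that of higher probes, 5, was 9, but calls over all probes were also more with it, 5357 higher and 5354 lower in place of 3094 and 3082. Lower member genes numbered 1 in place of 0 with that coefficient, with the strict filter that asks both channels of all arrays to be well above background, and with either pairing of swapped arrays, and lower probes 2, 1 and 2. Over all probes, lower calls were also more than 3082, at 3432 with the strict filter and at 3379 and 3603 with the pairings. The 36 higher genes of the 8 pathway lists were 26 with normexp and loess, which called 990 probes higher and 1143 lower, and the 10 lower genes were 4 with it, and 4 with the methods' t-test, with or without a limit on the coefficient of variation. Over all probes, that t-test called 1882 lower, and 1952 with the limit, in place of 3082. Leaving out 1 array at a time gave 1 to 4 higher member genes and 2 to 5 higher probes, the lowest without array 3 or array 4, and 4 to 6 lower pathway genes against 10. Fewer arrays weaken the test for every probe, and calls over all probes in these fits are not set beside the counts. The causes were not tested. Each ratio compares both genotypes within an array, and the pairings of swapped arrays were the paired alternatives. All member probes were well above background on every array.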
